A study of Mus musculus with 10 samples.

Results

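The genes described are 10 genes of iron uptake, storage and export in mouse: Tfrc, Trf, Hfe, Slc11a2, Slc11a1, Fth1, Ftl1, Slc40a1, Cp and Hmox1. They were chosen by symbol, for their known function, and all 10 were found among the 18384 genes listed in the mRNA-seq data. The samples were adipocyte precursors (APs), the progenitors of fat cells, taken from subcutaneous white adipose tissue of C57BL/6 J mice. Magnetic beads had depleted cells with CD45 (leukocytes) or CD31 (endothelium) on their surface, and the remaining cells with SCA-1 were kept. In each of 3 control libraries and 3 libraries of IL-4–treated APs, poly-A RNA was sequenced, and both groups were harvested on day 4 of the treatment. IL-4 had been added 1 day after seeding, the controls are labelled only as such, and no transgene or deletion is named for either group. The dose of IL-4 and the age and number of the animals are not given in the sources used here. The replicates are described as biological.

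Iron enters most cells bound to the plasma protein transferrin, which is taken up by the transferrin receptor into endosomes, reduced there and released to the cytosol. Iron that is not used is stored in ferritin, a shell built of heavy and light chains, and leaves the cell through ferroportin, the only known iron exporter of mammals. Iron regulatory proteins bind hairpins in mRNAs, the iron-responsive elements, when the cell is short of iron: binding at the 5′ end blocks translation of ferritin and ferroportin, and binding at the 3′ end protects the transferrin receptor mRNA from degradation. Macrophages handle much of the iron of the body because they break down red cells, and macrophages of fat tissue are known to store iron.

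These hairpins were located in the RefSeq transcripts of the 10 genes (genome build mm10) and are shown because hairpins of this kind are where iron regulatory proteins are known to bind. The pattern searched was a C, then 5 bases, the loop CAGTGN, and 5 bases that pair with the first 5 (Watson-Crick or G with T), on the transcript strand only. It matched 4 of the 10 genes, and the loop is in capitals.

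Fth1, 5′ UTR, exon 1: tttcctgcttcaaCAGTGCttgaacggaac

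Ftl1, 5′ UTR, exon 1: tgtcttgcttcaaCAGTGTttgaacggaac

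Slc40a1, 5′ UTR, exon 1: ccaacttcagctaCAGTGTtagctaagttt

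Tfrc, 3′ UTR, exon 19, site at base 889: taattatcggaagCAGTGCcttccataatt

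Tfrc, 3′ UTR, exon 19, site at base 1268: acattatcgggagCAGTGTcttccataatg

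Tfrc, 3′ UTR, exon 19, site at base 1333: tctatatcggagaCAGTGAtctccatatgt

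Tfrc, 3′ UTR, exon 19, site at base 1380: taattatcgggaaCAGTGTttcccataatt

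The Fth1 window lies at chr19:9982731-9982760 on the plus strand, the Ftl1 window at chr7:45459779-45459808 on the minus strand and the Slc40a1 window at chr1:45925465-45925494 on the minus strand. The Tfrc windows lie on the plus strand of chromosome 16, from 32631218 to 32631247, 32631597 to 32631626, 32631662 to 32631691 and 32631709 to 32631738. The bulged C stood at base 93 of the 5′ UTR in Fth1, base 86 in Ftl1 and base 108 in Slc40a1. The windows of the ferritin mRNAs were identical at 27 of 30 bases, whereas the Fth1 and Slc40a1 windows shared 13 of 30. Among the tested genes with an annotated UTR, whose lengths vary, the pattern occurred in the 5′ UTR of 15 of 13298 (0.113%) and in the 3′ UTR of 87 of 13324 (0.653%). A match is a description of the sequence and was not tested for binding, and elements with other bases or an extra bulge, such as the one known in the 3′ UTR of Slc11a2, are not found by this pattern.

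**Figure D1:**
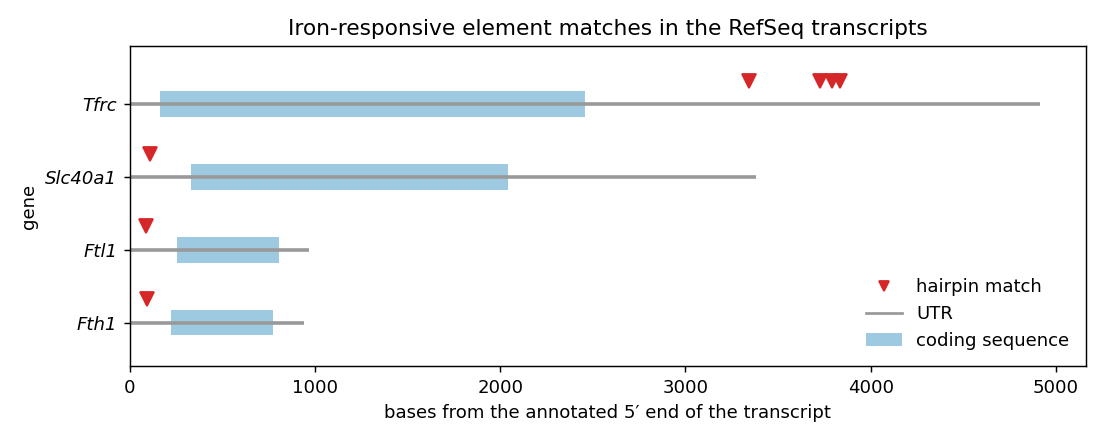
Positions of the hairpin matches (triangles) along the RefSeq transcripts of Tfrc, Slc40a1, Ftl1 and Fth1, in bases from the 5′ end, with coding sequence as blue bars and UTRs as grey lines. Tfrc carries 4 matches in its 3′ UTR, and the other 3 transcripts carry 1 each near the 5′ end.

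Libraries held 28526782 to 28674604 expected counts in the control group and 28914003 to 29057787 in the IL-4 group, and 14009 genes passed the filter on low counts, all 10 iron genes among them. Markers of APs were present, with all 9 of 9 tested and a summed level of 3898 to 4236 FPKM (fragments per kilobase of transcript, scaled to library size) in control and 4308 to 4649 FPKM in IL-4 libraries. Most of this sum was the collagen gene Col1a1, with means of 3307 FPKM in control and 3690 FPKM in IL-4 libraries. Dpp4 was the lowest of these markers, at means of 0.31 and 0.38 FPKM. Markers of macrophages were present as well, although CD45-positive cells had been removed: all 16 of 16 were tested, their summed level was 4722 to 6206 FPKM in control and 1868 to 2591 FPKM in IL-4 libraries, and none was at 0 in any library. Cx3cr1 and Aif1 came close with IL-4, at 3 to 5 and 6 to 13 counts. Of these 16, 14 were lower with IL-4 and none was higher in edgeR's test (Cd68 had an unadjusted p under 0.05, and DESeq2 called it higher), with a median log2 fold change of -0.97. Among all genes tested, 18.4% were lower and 19% higher. Ptprc, which encodes CD45, had a mean of 18.3 FPKM in control and 8.22 FPKM in IL-4 libraries, and Lyz2, the lysozyme of macrophages, 2739 and 776 FPKM. Markers of lymphocytes summed to at most 1.25 FPKM, of erythroid cells to at most 5.04 FPKM, of mature adipocytes to at most 0.41 FPKM and of endothelial cells to at most 13.1 FPKM in any library. In bulk samples such as these, fewer cells of a type and less RNA per cell cannot be told apart. Control replicate 3 and IL-4 replicate 6 stood apart from their groups by transcript length: the 703 genes with transcripts under 1000 bases were higher than in the other libraries of the group by a median of 0.18 and 0.40 on the log2 scale, and the 2101 genes over 5000 bases differed by -0.16 and -0.34. The ferritin mRNAs, at 942 and 986 bases in the files, are among the short ones, and their values are given with and without these libraries.

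With IL-4, 4 of the 10 iron genes rose (Tfrc, Cp, Hfe and Trf), 4 fell (Slc40a1, Slc11a1, Hmox1 and Fth1), and Ftl1 and Slc11a2 did not pass the test. A gene was called at an adjusted p under 0.05 in edgeR's quasi-likelihood test, adjusted over all 14009 genes. Of all genes tested, 37.4% were called, 19% as higher and 18.4% as lower. Beyond a log2 fold change of 1, 2 members were higher (Tfrc and Cp) and 2 lower (Slc40a1 and Slc11a1), against 11% of all genes in either direction. The groups did not overlap in normalized counts for 8 of 10 members, against 50.4% of all genes. The median log2 fold change was -0.02 over the members and 0.0026 over all genes tested. With control replicate 3 and IL-4 replicate 6 both left out, 4 members were higher and 5 lower, the added one being Ftl1. Calls over all genes rose too in that setting, from 2663 higher and 2582 lower to 3582 and 3526.

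**Figure D2:**
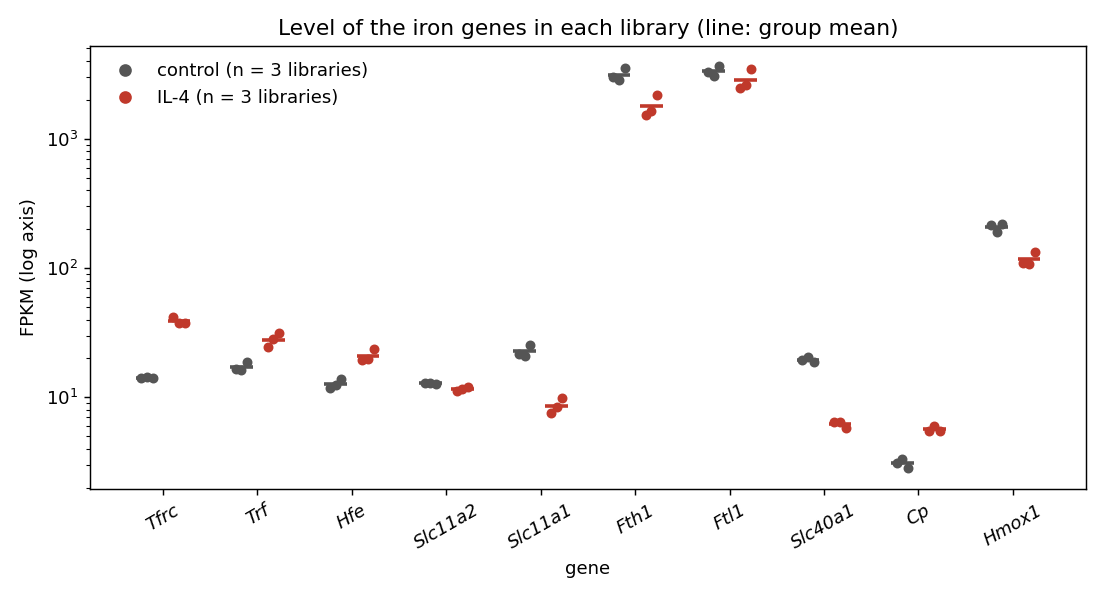
Level of each iron gene in each library, in FPKM on a log axis, for 3 control (grey) and 3 IL-4 (red) libraries, with the group mean as a line. The ferritin genes Fth1 and Ftl1 lie above 1000 FPKM in every library, and Tfrc and Slc40a1 move in opposite directions with no overlap between groups.

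**Figure D3:**
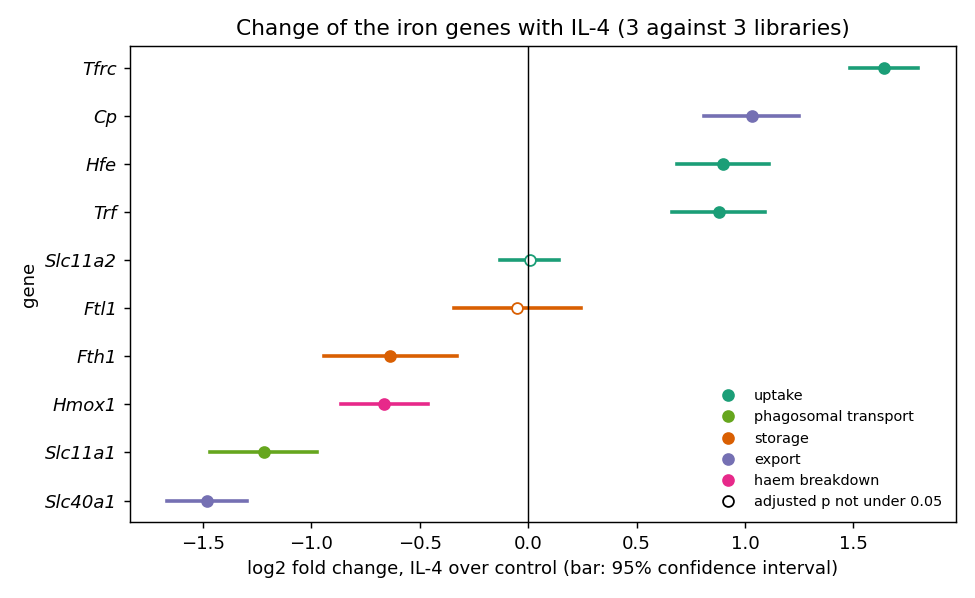
Fitted log2 fold change of each iron gene, IL-4 over control, with its 95% confidence interval, coloured by role; open circles mark genes that did not pass the test. The intervals of Ftl1 and Slc11a2 cross 0, and the estimates run from -1.48 (Slc40a1) to 1.64 (Tfrc).

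Tfrc (Entrez 22042, chr16:32608896-32632794 in mm10, the build of all positions given) encodes the transferrin receptor and showed the largest rise among the 10 genes. Its level was 14.1, 14.4 and 14.1 FPKM in the control libraries and 42.1, 37.8 and 37.9 FPKM in the IL-4 libraries. Every IL-4 library was thus well above every control library. The normalized counts went from 1875 ± 34.4 to 5843 ± 425 (SD, n = 3 each), a 3.12-fold rise (log2 fold change 1.64, SE 0.07, edgeR adjusted p = 1.18e-06). The 95% interval of the log2 fold change ran from 1.48 to 1.80. By mean FPKM, Tfrc moved from rank 5013 to rank 1787 among the genes tested.

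Trf (Entrez 22041, chr9:103208876-103230286) encodes transferrin, the ligand of that receptor, which the liver secretes into plasma and other tissues make in smaller amounts. Its level was 16.7, 16.2 and 18.7 FPKM in control libraries and 24.5, 28.2 and 31.2 FPKM in IL-4 libraries, without overlap. Trf rose 1.84-fold (log2 fold change 0.88, SE 0.09, 95% interval 0.67 to 1.09, edgeR adjusted p = 0.000173), from 1055 ± 72.2 to 1940 ± 206 normalized counts (SD, n = 3 each).

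Hfe (Entrez 15216, chr13:23702034-23710854) encodes the MHC class I-like protein that binds the transferrin receptor and is mutated in hereditary haemochromatosis. It stood at 11.9, 12.4 and 13.8 FPKM in control and at 19.4, 19.8 and 23.6 FPKM in IL-4 libraries, again without overlap. The rise was 1.87-fold (log2 fold change 0.90, SE 0.09, 95% interval 0.69 to 1.11, edgeR adjusted p = 0.000140), from 569 ± 41.2 to 1061 ± 99.9 normalized counts (SD, n = 3 each). Its estimate was close to that of Trf.

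Slc11a2 (Entrez 18174, chr15:100387898-100424209) encodes DMT1, which carries ferrous iron out of the endosome and across the gut epithelium. Its level was 13.0, 13.0 and 12.6 FPKM in control and 11.2, 11.7 and 11.9 FPKM in IL-4 libraries. In FPKM the IL-4 libraries were all slightly lower, while the normalized counts of the groups overlapped, with means of 1239 ± 45.3 and 1245 ± 14.2 (SD, n = 3 each). The fitted log2 fold change was 0.01 (SE 0.06, edgeR adjusted p = 0.942), and in this fit its 95% interval of -0.13 to 0.14 leaves out changes larger than 1.10-fold. Scaled to library totals, the value was -0.17, outside that interval, with an edgeR adjusted p of 0.0473. The RefSeq entries of Slc11a2 include transcripts that differ in the 3′ UTR, and the files give 1 value per gene.

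Slc11a1 (Entrez 18173, chr1:74375014-74386057) encodes NRAMP1, a metal transporter of the phagosome membrane that is known from macrophages and neutrophils. It stood at 21.7, 20.8 and 25.5 FPKM in control and at 7.64, 8.39 and 9.84 FPKM in IL-4 libraries. The groups lay far apart, and the fall was 2.33-fold (log2 fold change -1.22, SE 0.11, 95% interval -1.46 to -0.97, edgeR adjusted p = 6.01e-05), from 1375 ± 138 to 590 ± 67.2 normalized counts (SD, n = 3 each). The transporters of the SLC11 family thus had estimates of -1.22 and 0.01 on the log2 scale, and the difference between these was not tested.

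The ferritin mRNAs were among the most abundant of all. Fth1 (Entrez 14319, chr19:9980600-9985111) encodes the heavy chain, which oxidises ferrous iron, and Ftl1 (Entrez 14325, chr7:45457944-45459886) the light chain, which supports mineral formation in the core. Together they took 0.561%, 0.531% and 0.644% of the counts in control libraries and 0.360%, 0.383% and 0.512% in IL-4 libraries. By mean FPKM among the genes tested, Ftl1 ranked 2 and Fth1 ranked 4 in control, and 6 and 12 with IL-4.

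Fth1 stood at 2989, 2846 and 3531 FPKM in control and at 1542, 1628 and 2174 FPKM in IL-4 libraries. The groups did not overlap, although the highest value of each group was in the library that stood apart by transcript length, control replicate 3 and IL-4 replicate 6. Fth1 fell 1.55-fold (log2 fold change -0.64, SE 0.13, 95% interval -0.94 to -0.33, edgeR adjusted p = 0.00642), from 73951 ± 7934 to 47614 ± 8380 normalized counts (SD, n = 3 each). It was -0.54 without control replicate 3 (edgeR adjusted p = 0.0244), -0.78 without IL-4 replicate 6 (edgeR adjusted p = 1.84e-05) and -0.70 without both (edgeR adjusted p = 1.10e-10), and over all alternatives it ran from -0.82 to -0.54.

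Ftl1 stood at 3290, 3070 and 3655 FPKM in control and at 2461, 2620 and 3496 FPKM in IL-4 libraries. IL-4 replicate 6 lay among the control values, and the other IL-4 libraries lay below them. The log2 fold change was -0.05 (SE 0.13, 95% interval -0.34 to 0.24, edgeR adjusted p = 0.793). This value turned on 1 library: without IL-4 replicate 6 it was -0.20 (edgeR adjusted p = 0.0400), and without both libraries that stood apart it was -0.14 (edgeR adjusted p = 0.0108). Ftl1 has near-identical copies in the mouse genome, and the way reads were shared with them was not analysed here. Its counts and those of the other 9 genes were whole numbers in every library. This does not show whether reads from the copies were counted as Ftl1.

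The ratio of Fth1 to Ftl1 compares mRNAs of similar length within a library. It was 0.908, 0.927 and 0.966 in control and 0.626, 0.621 and 0.622 in IL-4 libraries, so that the 3 IL-4 libraries, IL-4 replicate 6 included, were nearly equal. On the log2 scale the ratio was -0.10 ± 0.05 (SD, n = 3) in control and -0.68 ± 0.01 (SD, n = 3) with IL-4, a difference of -0.58 or 1.50-fold lower (exact two-sided permutation test, p = 0.1, the smallest that 3 against 3 libraries allow). The ratio shows unequal change of the chains and not which of them moved.

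**Figure D4:**
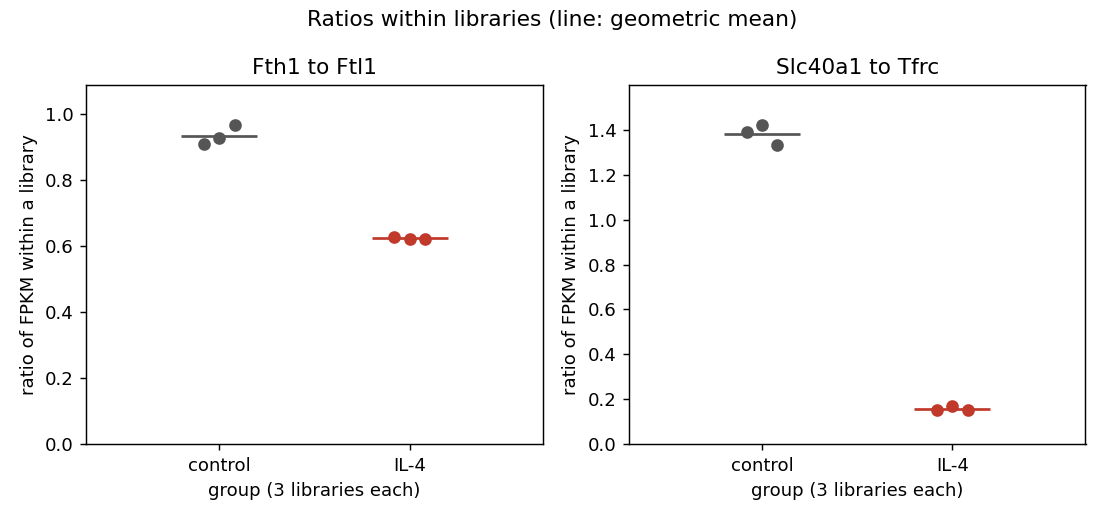
Ratios of FPKM within each library, Fth1 to Ftl1 (left) and Slc40a1 to Tfrc (right), for 3 control and 3 IL-4 libraries, with the geometric mean as a line and axes that start at 0. Fth1 to Ftl1 goes from between 0.908 and 0.966 to between 0.621 and 0.626, and Slc40a1 to Tfrc from between 1.33 and 1.42 to between 0.152 and 0.171.

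Slc40a1 (Entrez 53945, chr1:45908070-45926532) encodes ferroportin and showed the largest fall among the 10 genes. Its level was 19.6, 20.5 and 18.8 FPKM in control and 6.45, 6.48 and 5.77 FPKM in IL-4 libraries. All IL-4 libraries lay below all controls, and the fall was 2.79-fold (log2 fold change -1.48, SE 0.08, 95% interval -1.66 to -1.30, edgeR adjusted p = 4.17e-06), from 1767 ± 89.7 to 633 ± 50.5 normalized counts (SD, n = 3 each). Within a library, the ratio of Slc40a1 to Tfrc was 1.39, 1.42 and 1.33 in control and 0.153, 0.171 and 0.152 with IL-4, 8.69-fold lower (log2 difference -3.12, exact two-sided permutation test, p = 0.1, the smallest possible). The exporter mRNA was thus above the receptor mRNA per length in each control library and below it in each IL-4 library.

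Cp (Entrez 12870, chr3:19956933-20009750) encodes ceruloplasmin, the copper ferroxidase that oxidises the iron leaving through ferroportin so that transferrin can bind it. By mean FPKM it was the lowest of the 10 genes in both groups, at 3.13, 3.35 and 2.82 FPKM in control and 5.48, 6.02 and 5.45 FPKM in IL-4 libraries. Cp rose 2.04-fold (log2 fold change 1.03, SE 0.09, 95% interval 0.81 to 1.25, edgeR adjusted p = 8.14e-05), from 352 ± 33.0 to 718 ± 50.9 normalized counts (SD, n = 3 each), and so moved opposite to Slc40a1. Heph, the membrane ferroxidase hephaestin, fell 1.42-fold (log2 fold change -0.50, SE 0.10, edgeR adjusted p = 0.00558), from a mean of 9.48 to 5.92 FPKM.

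Hmox1 (Entrez 15368, chr8:75093618-75100593) encodes haem oxygenase 1, which opens the haem ring and frees its iron, and is induced by haem and oxidative stress. It stood at 216, 192 and 218 FPKM in control and at 110, 108 and 133 FPKM in IL-4 libraries, the third most abundant of the 10 genes in both groups. The groups did not overlap, and Hmox1 fell 1.58-fold (log2 fold change -0.66, SE 0.09, 95% interval -0.86 to -0.46, edgeR adjusted p = 0.000562), from 8856 ± 544 to 5592 ± 575 normalized counts (SD, n = 3 each). The constitutive enzyme, Hmox2, had a log2 fold change of -0.19 (edgeR adjusted p = 0.145).

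In the order of FPKM, the control libraries had Ftl1 and Fth1, whose ranges overlapped, then Hmox1, Slc11a1, Slc40a1, Trf, Tfrc, Slc11a2 and Hfe, with the last pair overlapping, and Cp. With IL-4 the order was Ftl1, Fth1, Hmox1, Tfrc, Trf, Hfe, Slc11a2, Slc11a1, Slc40a1 and Cp, with overlap between Slc40a1 and Cp. Tfrc, Trf and Hfe thus stood above Slc11a1 and Slc40a1 in IL-4–treated APs and below them in controls.

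Slc40a1, Slc11a1, Hmox1 and Fth1, the members that fell, were lower in the IL-4 libraries, as were 14 macrophage markers, whose summed level is given above. With only 1 contrast, this holds for every gene called lower, 18.4% of all genes tested. The log2 fold changes of these members, -1.48, -1.22, -0.66 and -0.64, stand beside the median of -0.97 over the 16 markers. Among the markers, Cd68 (0.38, edgeR adjusted p = 0.0572) and Fcgr3 (-0.04, edgeR adjusted p = 0.796) did not pass the test and Cx3cr1 had the lowest value, -8.65. With control replicate 3 and IL-4 replicate 6 left out, the same number of markers, 14, was lower and 1 higher, Cd68. Single libraries left out gave 10 lower without control replicate 3, 10 without IL-4 replicate 4, and at most 14, without IL-4 replicate 6. Over all genes, 2139, 2179 and 3007 were lower in these settings, against 2582 in the reported fit. The part of macrophages in the falls of these genes was not tested. The AP markers went both ways, 4 higher and 2 lower of 9 (66.7% called, against 37.4% of all genes tested). Among the higher ones was Ly6a, the gene of SCA-1, with a log2 fold change of 1.20 (edgeR adjusted p = 0.000104). The lower ones were Pdgfrb, at -0.66 (edgeR adjusted p = 0.000989), and Dlk1, at -0.67 (edgeR adjusted p = 0.0492). The part of APs in the rises of Tfrc, Trf, Hfe and Cp was not tested either.

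The wider genes of iron and haem handling went both ways. Of 78 genes in 9 lists, 67 were tested, and 16 were higher, 14 lower and 37 not called, 44.8% called against 37.4% of all genes. Their median log2 fold change was 0.07, and 4 were higher and 1 lower beyond a log2 fold change of 1. Scaled to library totals, which shifts the median of all genes by -0.17, 10 were higher and 23 lower, and the split over all genes went from 2663 higher and 2582 lower (50.8% higher) to 1704 and 4963 (25.6% higher). Hamp, Hamp2, Hjv, Ftmt and Ftl2 were not found by symbol among the 18384 genes listed, and so were not tested. Genes of these lists and of the marker lists that are named without being past a log2 fold change of 1 or the most abundant of their list were chosen after their values were seen.

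Genes of uptake and endosomal release, other than the members, were mostly higher. Of 11 tested, 7 rose and 1 fell, with a median log2 fold change of 0.53 (5 and 2 on library totals), against 19% higher and 18.4% lower of all genes. Steap3, the ferrireductase of the transferrin endosome, was the most abundant of them and went from 29.3, 27.4 and 28.4 FPKM to 60.8, 57.6 and 60.0 FPKM, a 2.37-fold rise (log2 fold change 1.24, SE 0.06, edgeR adjusted p = 1.64e-06). Steap1, of the same family, rose 2.05-fold (log2 fold change 1.03, SE 0.12, edgeR adjusted p = 0.000244), from a mean of 8.98 to 16.3 FPKM. Scara5, a scavenger receptor for ferritin, had 26, 17 and 14 counts in control and 187, 168 and 167 in IL-4 libraries, a fitted rise of 10.1-fold (log2 fold change 3.34, SE 0.20, edgeR adjusted p = 7.59e-06) at a level of only 1.60 FPKM with IL-4. The zinc and iron transporters of the plasma membrane went opposite ways, with Slc39a14 at 0.53 (edgeR adjusted p = 0.000421) and Slc39a8 at -0.51 (edgeR adjusted p = 0.00239) on the log2 scale. Tfr2, the second transferrin receptor, was at 0.79 FPKM in control and 0.57 FPKM with IL-4 and did not pass the test.

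Of the storage list, 0 of 3 tested genes passed edgeR's threshold, against 37.4% of all genes, and 1 passed with DESeq2. An unadjusted p under 0.05 in edgeR was given to Pcbp2, an iron chaperone, with a log2 fold change of 0.21 and an adjusted p of 0.0621. Ncoa4, the receptor that brings ferritin to lysosomes, had a log2 fold change of 0.06 (edgeR adjusted p = 0.465). These estimates are smaller than that of the ferritin heavy chain mRNA.

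Among regulators, Fbxl5, the iron-sensing ubiquitin ligase adaptor for iron regulatory protein 2, rose 1.33-fold (log2 fold change 0.41, SE 0.06, edgeR adjusted p = 0.000724), from 16.7 to 19.8 FPKM. The iron regulatory proteins did not pass the test, with Aco1 at 0.11 (edgeR adjusted p = 0.251) and Ireb2 at -0.17 (edgeR adjusted p = 0.218), although Ireb2 was lower on library totals and with limma. Of 3 tested genes of the hepcidin pathway, 1 fell (33.3% called, against 37.4% of all genes). This was Erfe, the hormone erythroferrone, at -0.86 (edgeR adjusted p = 0.00176). Neo1, the most abundant of that list, was at -0.37 with an edgeR adjusted p of 0.0798.

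Of 11 genes of haem uptake, export and breakdown, 3 were higher and 2 lower (45.5% called, against 37.4% of all genes tested), with a median of 0.08. On library totals, 1 was higher and 4 lower, with a median of -0.09. Flvcr2, a transporter of the haem exporter family, fell 2.08-fold (log2 fold change -1.06, SE 0.14, edgeR adjusted p = 0.000629) from a mean of 2.25 to 0.957 FPKM, and Flvcr1 was at -0.52 (edgeR adjusted p = 0.00128). Cd163, the haemoglobin scavenger receptor of macrophages, was at 0.88 (edgeR adjusted p = 0.00191) and thus higher, at 0.767 FPKM in control and 1.26 FPKM with IL-4. Lrp1, the receptor for haem-haemopexin and many other ligands, was the most abundant, at 224 and 212 FPKM, with overlapping groups (log2 fold change 0.10, edgeR adjusted p = 0.773). Of 8 genes of haem synthesis, 1 was higher and 0 lower (12.5% called). On library totals and with limma, 1 was higher and 3 lower. Over all genes, 4963 were lower on library totals, against 2582 in the reported fit. The higher gene in the reported fit was Cpox, coproporphyrinogen oxidase, with a 2.28-fold rise (log2 fold change 1.19, SE 0.06, edgeR adjusted p = 2.13e-06), from 12.2 to 24.7 FPKM. Part of its expected counts were not whole numbers. Fech, which inserts the iron, was at 0.00 (edgeR adjusted p = 0.991).

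Of 17 genes of mitochondrial iron and iron-sulfur clusters, 2 were higher and 4 lower (35.3% called, against 37.4% of all genes). On library totals and with limma the counts were 0 and 4, without control replicate 1 they were 0 and 3, and without control replicate 2 they were 0 and 2. Leaving out control replicate 3 or IL-4 replicate 5 gave 2 and 2. Calls over all genes fell too, from 2663 higher and 2582 lower in the reported fit. They were 2005 and 1895 without control replicate 1, and 2013 and 1941 without control replicate 2. Without control replicate 3 they were 2262 and 2139, and without IL-4 replicate 5 they were 2224 and 2012. Among the lower ones were Abcb10 and the iron importer Slc25a37, at -0.36 and -0.20 on the log2 scale, and the higher ones were Hscb and Cisd1, at 0.42 and 0.48. Iscu, the scaffold on which clusters are built, was the most abundant and was at 0.15 (edgeR adjusted p = 0.250).

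NRF2, encoded by Nfe2l2, and its competitor BACH1 act on Hmox1, Fth1, Ftl1 and Slc40a1, as is known from other work. Of 10 genes in this list, 2 were higher and 5 lower, with a median of -0.29 (2 and 6 on library totals), against 19% higher and 18.4% lower of all genes. With DESeq2, 2 were higher and 4 lower. Leaving out any 1 library also gave 4 lower, except control replicate 3, which gave 5. Over all genes, leaving out 1 library gave 1895 to 3007 lower, against 2582 in the reported fit. Nfe2l2 itself stood at 78.1 FPKM in control and 70.5 FPKM with IL-4 (log2 fold change 0.03, edgeR adjusted p = 0.752). Bach1, the haem-binding repressor, rose (log2 fold change 0.80, SE 0.10, edgeR adjusted p = 0.000481), from 17.6 to 27.1 FPKM. The lower genes were Gclc, Gclm, Txnrd1, Nqo1 and Srxn1, which serve glutathione synthesis and redox defence, between -0.50 and -0.34, and Slc7a11, the cystine transporter, was higher (0.74, edgeR adjusted p = 0.00122). Nqo1 was close to the threshold (edgeR adjusted p = 0.0494).

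**Figure D5:**
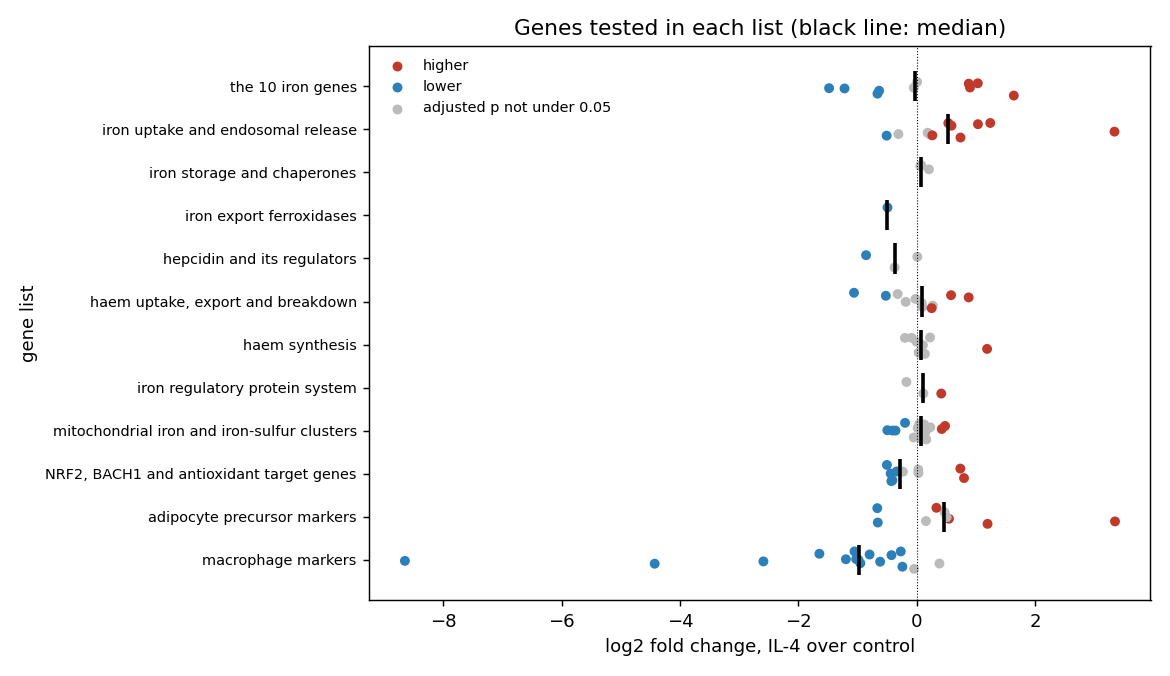
Log2 fold change, IL-4 over control, of every tested gene in the iron list, the 9 wider lists, and the AP and macrophage markers; red and blue points passed the test as higher and lower, grey points did not, and the black line is the median. The uptake list lies mostly to the right of 0 with a median of 0.53, and the macrophage markers mostly to the left with a median of -0.97.

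Besides the members, 12 tested genes held the hairpin pattern in the 5′ UTR, and 3 of them were higher and 3 lower (50.0% called). In the 3′ UTR, 86 held it besides Tfrc, and 22 were higher and 12 lower (39.5% called, against 37.4% of all genes tested).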

How the data were processed

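Poly-A RNA of APs was sequenced on BGISEQ-500. The authors filtered reads with SOAPnuke and mapped them to mm10 with HISAT, and gene levels were obtained with Bowtie2 and RSEM; the submitters' processing notes also name StringTie, and no versions are given. The deposited expected counts are not normalized, and the deposited FPKM were scaled by the authors for transcript length and library size. Strand use in counting is not stated in the sources used here. Small RNA libraries were not used. Genes missing from a library were taken as 0, and 1 row without a gene name, at most 0.00022% of counts, was left out. Of the expected counts, 87.0% were whole numbers.

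After rounding of the expected counts, edgeR 4.0.16 (R 4.3.3) removed low genes by filterByExpr with a minimum count of 10 and a minimum total of 15, scaled libraries by TMM and compared the groups by its quasi-likelihood test, with p-values adjusted by Benjamini and Hochberg across the 14009 genes left (biological coefficient of variation 0.0939). A normalized count is the count over the TMM-scaled size of its library, times the mean of these sizes. FPKM were used to compare levels between genes. Groups and replicates follow the labels, and the day of harvest follows the study's methods. With 3 libraries per group, p-values measure the spread between these libraries. The self-test of the fit was run on simulated data. Alternatives were DESeq2 1.42.0, its size factors in edgeR, upper-quartile scaling, library totals, the unfiltered table, limma 3.58.1 with FPKM taken as log2 after adding a pseudocount of 1 or 0.1, and each library left out. Leaving out control replicate 3 and IL-4 replicate 6 together was added after the data had been seen.

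The genes named are the 10 members, genes of the wider lists with an adjusted p under 0.05, a log2 fold change beyond 1, groups that did not overlap and a mean normalized count of 100 or more, and the most abundant gene of each list. Further genes of the lists are named as examples, and these were chosen after their values were seen. The members and lists were chosen with earlier results of these data known. Hairpins were searched in RefSeq transcripts of GRCm38.p6, the assembly of mm10.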

Additional observations from a re-analysis of the deposited data

How the results depend on the processing

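The 8 called members kept their direction and their call under each of the 14 alternatives. Of 140 values of members under alternatives, 129 kept direction and side of the threshold, 9 reversed and 2 kept their direction and newly passed the threshold. Of the reversed values, Slc11a2 on library totals passed it too (edgeR adjusted p = 0.0473). All of these 11 belong to Ftl1 and Slc11a2, whose main values lie near 0. Ftl1 was 0.01 without control replicate 3 (0.0138) and without IL-4 replicate 5 (0.0107), 0.05 without IL-4 replicate 4 (0.0507), -0.20 without IL-4 replicate 6 and -0.14 without both libraries that stood apart; leaving out 1 library gave -0.20 to 0.05. Slc11a2 was -0.02 under upper-quartile scaling (-0.0161), -0.17 on library totals (-0.1659), -0.14 with limma on log2(FPKM + 1) (-0.1383), -0.15 on log2(FPKM + 0.1) (-0.1485), -0.02 without control replicate 3 (-0.0232) and -0.02 without both libraries (-0.0235); leaving out 1 library gave -0.0232 to 0.0262. The members called lower were 4 in the reported fit and 5 on library totals, without IL-4 replicate 6 and without both libraries. All genes called lower were 2582 in the reported fit, 4963 on library totals, 3007 without IL-4 replicate 6 and 3526 without both libraries. In the wider lists, 16 higher and 14 lower became 10 and 23 on library totals and with limma on log2(FPKM + 0.1), and the lower ones became 23 with limma on log2(FPKM + 1). These settings shift the median of all genes by -0.17 on the log2 scale; TMM recentres it. The cause of the other changes was not tested. No paired analysis was possible because the control libraries are numbered 1 to 3 and the IL-4 libraries 4 to 6 and so share no number. The sum of Ftl1 and Ftl2 was not run, since Ftl2 was not found among the genes listed. Both within-library ratios kept their direction in all alternatives that apply to them. Depth was not limiting for the members, whose lowest value was 338 counts, for Cp.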
